A study of Mus musculus with 20 samples.

Results

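Splenic natural killer (NK) cells of 5 mice given ptaquiloside together with selenium were compared with those of 5 mice given water, on 10 of the 20 single-colour arrays of the series. All mice were male C57BL/6 animals dosed by gavage each day over 14 days, at 5.3 mg/kg ptaquiloside and 1.3 mg/kg selenium in the combination group. Their ages and the chemical form of selenium are not given in the labels. A further 5 mice received ptaquiloside alone and 5 selenium alone at the same doses, and they appear here only beside the combination. Each array held the RNA of a different mouse. Arrays sharing a mouse number shared a slide, and each group always lay at the same position on it, which means that slide position and treatment cannot be told apart.

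NK cells are lymphocytes that kill infected or transformed cells with perforin and granzymes, and their Ly49 and NKG2 receptors read MHC class I molecules on the target. Ptaquiloside, the carcinogen of bracken fern, is an unstable glucoside whose breakdown product alkylates DNA. Selenium is built as selenocysteine into glutathione peroxidases, thioredoxin reductases and other selenoproteins.

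Values are log2 processed signals relative to the 75th percentile of the array, so 0 marks a probe at that percentile and a difference of 1 is a doubling. The 75th percentile was 45.5 scanner units on the array of combination mouse 5 and 106 to 133 on the other 9 arrays. That array also had the lowest median correlation with the rest (0.953, against 0.974 to 0.980 on the others). Slide 5 holds it, and values without that slide are given beside several results below. Of 14 NK defining markers, 13 were above background on all 10 arrays, among them the receptor Ncr1 and the transcription factor Eomes. Combination arrays averaged 3.83 to 4.63 over this list, and control arrays 3.97 to 4.73. The isolates also carried RNA of other leukocytes. On all 10 arrays 15 of 20 B cell markers, 12 of 14 T cell markers and 17 of 18 neutrophil markers were above background.

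After ptaquiloside plus selenium, Spint1 rose and was the only gene of 17481 to pass limma with the slide as a block at a Benjamini-Hochberg adjusted p of 0.05 (0.00572% called). The protease inhibitor Spint1, the gasdermin Gsdme and the aryl hydrocarbon receptor repressor Ahrr had the smallest p-values, and all 3 were higher in every combination mouse than in any control mouse. Genes lower with the combination included the IgE receptor chain Fcer1a and other basophil and mast cell genes, with smaller differences. The unadjusted p was under 0.05 for 381 genes (2.18%), of which 156 were higher (0.892%) and 225 lower (1.29%). If no gene differed, a share of about 0.05 would pass that threshold, so the count by itself shows no response. The middle of all genes stood at 0.02 on the log2 scale, with quartiles of -0.10 and 0.13, and 54.5% were above 0. Of all genes 264 were higher (1.51%) and 372 lower (2.13%) on 5 of 5 slides. By this measure 34 genes (0.194%) were higher and 11 (0.0629%) lower by over 1.

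**Figure D1:**
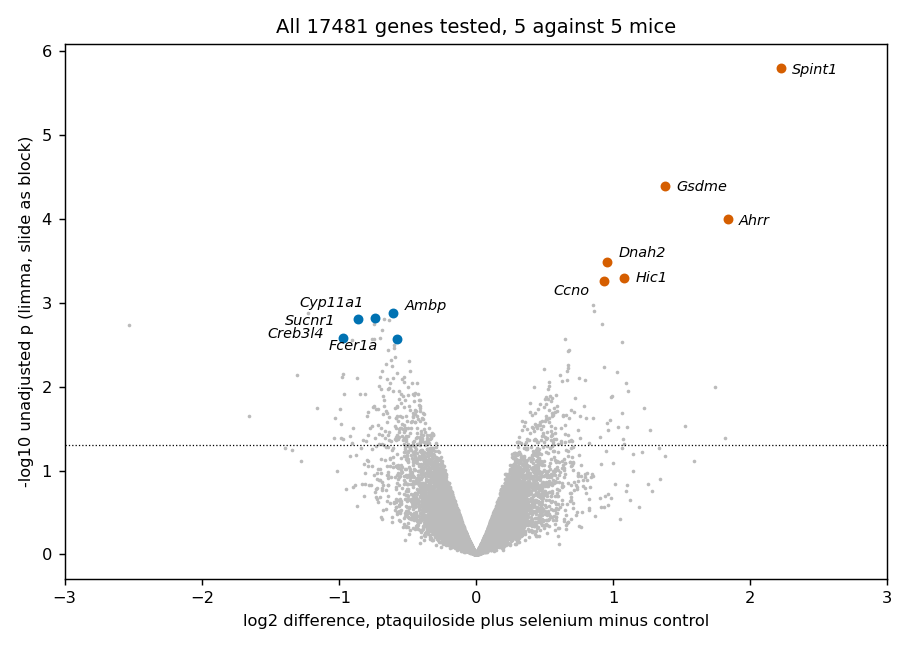
Log2 difference of ptaquiloside plus selenium minus control (horizontal axis) against -log10 of the unadjusted limma p (vertical axis) for the 17481 genes tested, 1 point per gene, with a dotted line at the unadjusted threshold of 0.05. Orange marks named genes that were higher and blue named genes that were lower with the combination. Spint1 (2.22) stands apart at the top right, followed by Gsdme (1.38) and Ahrr (1.84).

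Spint1 encodes a membrane-bound inhibitor of serine proteases that acts on matriptase and hepatocyte growth factor activator (probe at chromosome 2, 119074929 to 119074988, mm9). Its signals in combination mice 1 to 5 were 0.59, -1.41, -1.21, -0.91 and 0.03, and those in control mice 1 to 5 were -1.72, -4.07, -3.20, -2.93 and -2.12. The lowest combination mouse therefore lay above the highest control mouse, and the difference was present on 5 of 5 slides. It came to 2.22 ± 0.15 (SE) on the log2 scale, about 4.7-fold, with an unadjusted p of 1.59e-06 and a Benjamini-Hochberg adjusted p of 0.0278 from limma. The second tested probe of Spint1 gave 2.09. The call did not hold without the slide block (adjusted p = 1), without any 1 of the slides (0.200 to 0.368, with differences of 2.12 to 2.28), or in fits that added the single-compound groups (0.419 with 20 arrays, 0.444 with the 19 left without the dim array of ptaquiloside mouse 4), all from limma with Benjamini-Hochberg adjustment. With normexp background correction, which adds 50 units to each signal, the difference was 0.78 (adjusted p = 0.114 from limma).

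Gsdme, a gasdermin that caspase 3 cleaves into a membrane pore (chromosome 6, 50157436 to 50157495), followed. Its values were 1.17, 0.04, 0.12, 0.59 and 0.46 in the combination mice, and -0.46, -1.28, -1.50, -0.80 and -0.48 in the control mice. The groups did not overlap, as was the case for 12 genes in this direction (0.0686%) and for 15 in the other (0.0858%). The difference was 1.38 ± 0.15 (SE), with a Benjamini-Hochberg adjusted p of 0.350 from limma, and it did not pass the threshold. Of the 19 tested genes in the list of caspases and gasdermins 9 were higher and 10 lower, with a median of 0.00.

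**Figure D2:**
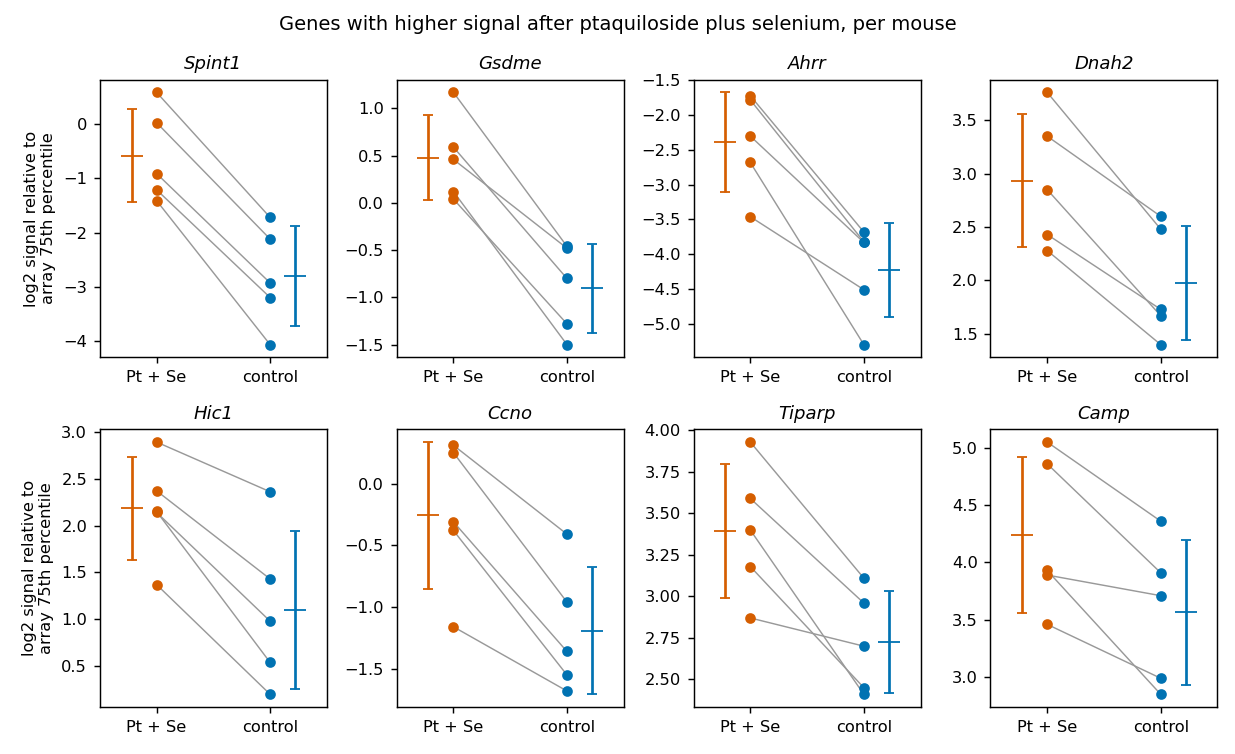
Log2 signal relative to the array's 75th percentile (vertical axis) of 8 genes in each combination mouse (orange, left, marked Pt + Se) and each control mouse (blue, right), with grey lines joining mice of 1 slide and bars giving the group mean ± SD (n = 5). Spint1, Gsdme and Ahrr show no overlap between groups, and all 8 genes were higher on 5 of 5 slides.

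Other genes with small p-values in this direction belonged to varied functions, and their groups overlapped unless stated. Dnah2, a dynein motor of cilia, was at 3.35, 2.28, 2.43, 2.85 and 3.76 in the combination mice, against 2.60, 1.40, 1.73, 1.67 and 2.48 in control mice, a difference of 0.96 ± 0.15 (SE). A second Dnah2 probe gave 0.14. Ccno, a cyclin needed by multiciliated cells, differed by 0.93 ± 0.15 (SE), with combination mice from -1.16 to 0.31 and control mice from -1.68 to -0.41. Hic1, a transcriptional repressor, averaged 2.19 ± 0.55 (SD, n = 5) with the combination and 1.10 ± 0.85 (SD, n = 5) in control, a difference of 1.08 ± 0.18 (SE). The phosphatase Acpp (0.85), the plasminogen activator inhibitor Serpinb2 (0.92) and the secreted glycoprotein Lrg1 (0.68) were likewise higher on 5 of 5 slides. Apol7c, an apolipoprotein L family member, ran from -0.69 to -0.32 with the combination and from -2.08 to -0.88 in control, without overlap (0.93 ± 0.24 SE). Snai3, a Snail family repressor, also showed no overlap (0.80 ± 0.22 SE), but stood at -0.09 with normexp correction. All of these had a Benjamini-Hochberg adjusted p of 0.9998 from limma.

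The aryl hydrocarbon receptor is a ligand-activated transcription factor that pairs with Arnt and binds DNA at the core GCGTG, and its targets include its own repressor Ahrr, the ADP-ribosyltransferase Tiparp and the quinone reductase Nqo1. Ahrr (chromosome 13, 74348566 to 74348612) was at -1.72, -2.68, -3.46, -2.30 and -1.78 in the combination mice, and at -3.68, -5.30, -4.51, -3.83 and -3.82 in control mice. No control mouse reached the lowest combination mouse, yet the control signals were dim, with 3 of 5 arrays above background against 5 of 5 with the combination. The difference was 1.84 ± 0.23 (SE) with a Benjamini-Hochberg adjusted p of 0.589 from limma. It passed with quantile normalization (1.82, adjusted p = 0.0451) and stood at 0.13 with normexp correction. Tiparp was at 3.93, 3.59, 3.18, 3.40 and 2.87 with the combination, against 3.11, 2.96, 2.45, 2.41 and 2.70 in control, a difference of 0.67 ± 0.16 (SE) with overlapping groups. Nqo1 differed by 0.50 ± 0.31 (SE) and was higher on 4 of 5 slides, at 0.20 without slide 5. Ahr itself was lower on 5 of 5 slides (-0.36 ± 0.16 SE) and Arnt stood at 0.03. The list of this response held 8 genes, of which these 5 were tested, with Ahr and Arnt among them. Its median of 0.50, against 0.02 for all genes, was the value of Nqo1. The median was 0.20 without slide 5 and 0.13 with normexp correction.

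The 250 bases before the transcription start of the 2 response genes with the smallest p-values, and of Spint1, are shown to let the receptor's core be seen beside these signals (RefSeq, GRCm38.p6, gene strand, 5′ to 3′). Capitals mark GCGTG or its reverse complement CACGC, and overlapping matches such as those that share the bases GC were each counted. The windows are chr13:74292332-74292581 (minus strand) for Ahrr, chr3:65528197-65528446 (plus strand) for Tiparp and chr2:119237110-119237359 (plus strand) for Spint1.
Ahrr: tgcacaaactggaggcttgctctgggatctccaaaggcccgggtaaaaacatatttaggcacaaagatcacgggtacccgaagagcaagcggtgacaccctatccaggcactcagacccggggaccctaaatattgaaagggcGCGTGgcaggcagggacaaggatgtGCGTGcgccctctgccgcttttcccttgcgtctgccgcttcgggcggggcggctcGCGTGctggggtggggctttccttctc
Tiparp: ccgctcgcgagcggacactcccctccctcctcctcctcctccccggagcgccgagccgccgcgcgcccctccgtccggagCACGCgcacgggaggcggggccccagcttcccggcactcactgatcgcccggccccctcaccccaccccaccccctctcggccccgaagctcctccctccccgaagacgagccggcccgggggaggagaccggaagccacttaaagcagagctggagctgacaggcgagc
Spint1: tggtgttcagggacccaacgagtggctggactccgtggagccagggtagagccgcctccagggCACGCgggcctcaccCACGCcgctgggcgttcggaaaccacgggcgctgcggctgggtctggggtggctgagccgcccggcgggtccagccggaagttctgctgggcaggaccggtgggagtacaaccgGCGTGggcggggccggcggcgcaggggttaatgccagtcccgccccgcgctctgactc
Ahrr and Spint1 each held 3 matches, Tiparp 1 and Nqo1 0. Of 32851 RefSeq promoters, 28.2% held at least 1 match in the same window and 2.77% held 3 or more. A match describes the letters only and does not mark a bound site.

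Genes lower with the combination had smaller differences, from -0.44 to -0.97 among those named by p or by lack of overlap. Cyp11a1, the enzyme that starts steroid synthesis from cholesterol, was at 0.36, 0.68, 0.79, 0.81 and 0.25 in the combination mice, against 1.32, 1.25, 1.59, 1.77 and 0.62 in control mice. Only control mouse 5 fell within the combination range. The difference was -0.73 ± 0.15 (SE), and its 3 probes gave -0.73, -0.73 and -0.69. Sucnr1, the succinate receptor, did not overlap (-4.79 to -4.05 with the combination, -3.84 to -3.29 in control), but only 1 of 5 combination arrays was above background, against 5 of 5 control arrays. Tnip3, an inhibitor of NF-kB signalling, also did not overlap (-0.64 ± 0.15 SE). The same held for the muscle LIM protein Csrp3 (-0.58 ± 0.15 SE) and the forkhead factor Foxn2 (-0.44 ± 0.13 SE).

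Klf5, a zinc finger transcription factor, averaged -1.08 ± 0.40 (SD, n = 5) with the combination and -0.45 ± 0.40 (SD, n = 5) in control. Ocstamp, a membrane protein of osteoclast fusion, differed by -0.74, the paired receptor Pira2 by -0.67 and Ambp, the precursor of bikunin, by -0.60. Creb3l4 (-0.97), a membrane-tethered transcription factor, and Ambp were above background on 3 of 5 combination arrays and 5 of 5 control arrays. Mrgpra3, a receptor of itch neurons, was not well above background in any combination mouse and was so in 3 of 5 control mice. It was 1.24-fold lower with the combination when combination signals were raised to at least each array's lowest reliable signal. The control mean took all 5 arrays as measured, so this is not a strict lower limit. Rai14 (-0.70) and the interferon-inducible Ifi205 (-0.76) were lower on 5 of 5 slides. Each of the genes lower with the combination had a Benjamini-Hochberg adjusted p of 0.9998 from limma.

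**Figure D3:**
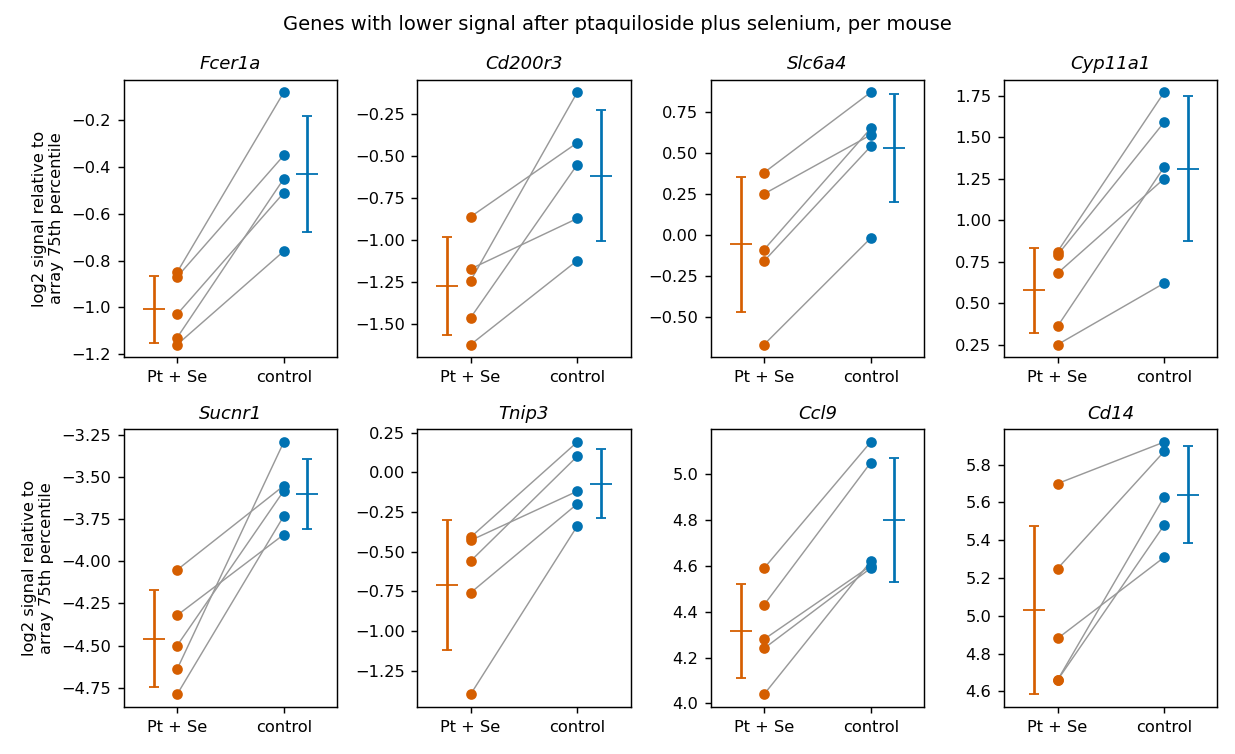
Log2 signal relative to the array's 75th percentile (vertical axis) of 8 genes with lower signal in combination mice (orange, left, marked Pt + Se) than in control mice (blue, right), with grey lines joining mice of 1 slide and bars giving the group mean ± SD (n = 5). Fcer1a, Sucnr1 and Tnip3 show no overlap, and all 8 were lower on 5 of 5 slides.

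Basophil and mast cell markers had the lowest median of the 44 gene lists described. Of 13 measured markers 12 were lower and 1 higher, with a median of -0.41 against 0.02 for all genes, and 4 were lower at an unadjusted p under 0.05 (30.8%, against 1.29% of all genes). Fcer1a, the alpha chain of the high-affinity IgE receptor (chromosome 1, 175152865 to 175152924), was at -1.13, -0.85, -1.03, -0.87 and -1.16 in the combination mice. In control mice it was at -0.45, -0.08, -0.51, -0.35 and -0.76, all above the highest combination mouse. The difference was -0.58 ± 0.13 (SE). Cd200r3, an activating receptor of basophils and mast cells, differed by -0.65 ± 0.16 (SE), with both of its probes lower. The cytokine Il4 (-0.57) and the carboxypeptidase Cpa3 (-0.51) were lower on 4 of 5 slides. Mcpt8, the protease that marks mouse basophils, was at -0.41 (unadjusted p = 0.0578) and the transcription factor Gata2 at -0.39 (0.108). Ms4a2, the beta chain of the same IgE receptor, stood at -0.02 and the mast cell chymase Cma1 at 0.05. Ms4a2 was above background on only 1 of 5 arrays in each group, so its value says little.

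Averaged over the 13 markers, combination mice 1 to 5 had 0.63, 0.65, 0.48, 0.72 and 0.50, and control mice 1 to 5 had 1.11, 1.31, 0.97, 1.05 and 0.38. Control mouse 5 alone lay below the combination mice, and the list median by slide was -0.68, -0.77, -0.45, -0.35 and 0.07. It was -0.61 without slide 5 and -0.25 with normexp correction. In these bulk isolates fewer cells of a type and less RNA per cell cannot be told apart. Slc6a4, the serotonin transporter, was lower on 5 of 5 slides as well (-0.59 ± 0.13 SE).

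Platelet and megakaryocyte markers were lower for 13 of 13 genes, with a median of -0.24. The chemokine Ppbp was at 3.23, 3.36, 3.57, 2.30 and 2.44 with the combination, against 4.07, 3.82, 3.66, 2.90 and 2.92 in control (-0.50 ± 0.15 SE), with overlapping groups. Ppbp had an unadjusted p of 0.0126. By slide the list median ran from -0.65 to 0.30 and was higher with the combination on slides 3 and 5. Without slide 1 it was -0.16 and without slide 5 it was -0.37.

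Macrophage and monocyte markers were lower for 17 of 21 genes, with a median of -0.15, which was -0.37 without slide 1. Cd14, the endotoxin co-receptor, was at 4.88, 5.25, 4.66, 5.70 and 4.66 with the combination, against 5.31, 5.87, 5.48, 5.92 and 5.63 in control (-0.61 ± 0.15 SE). The mannose receptor Mrc1 (-0.52) and the heme oxygenase Hmox1 (-0.56, and -0.35 without slide 5) also had an unadjusted p under 0.05. The complement genes C1qa and C1qb stood at 0.03 and 0.02.

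Neutrophil markers ran mostly the other way, with 13 of 18 higher, a median of 0.42 and 6 higher at an unadjusted p under 0.05 (33.3%, against 0.892% of all genes). Camp, the antimicrobial peptide cathelicidin, was at 5.05, 3.89, 3.46, 3.93 and 4.86 with the combination, against 4.36, 3.71, 2.99, 2.85 and 3.91 in control (0.67 ± 0.17 SE). The calcium-binding S100a9 differed by 0.53 ± 0.15 (SE), and the granule enzymes Elane (0.51), Mpo (0.49) and Prtn3 (0.46) were higher too. The gelatinase Mmp9 was lower (-0.65 ± 0.18 SE, unadjusted p = 0.00813), and the chemokine receptor Cxcr2 (-0.33), the cytokine receptor Csf3r (-0.31) and Retnlg (-0.34) had unadjusted p-values of 0.213 or more. Averaged over the list, combination mouse 1 was high at 2.69 and combination mice 2 to 5 lay between 1.68 and 1.95, against 1.49 to 2.03 in control mice. Without slide 1 the median was 0.25.

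Cell cycle and replication genes were higher for 33 of 36, with a median of 0.24 and 1 gene higher at an unadjusted p under 0.05 (2.78%, against 0.892% of all genes). That gene was Rrm2, a subunit of ribonucleotide reductase (0.76 ± 0.26 SE), with Top2a (0.55), Birc5 (0.58, and 0.36 without slide 5) and Mki67 (0.53) behind it. The list was higher with the combination on slides 1, 3, 4 and 5 (0.65, 0.11, 0.53 and 0.38) and lower on slide 2 (-0.48). Without slide 2 its median was 0.40 and without slide 4 it was 0.15. On slides 1 to 5 erythroid markers stood at 0.81, -0.86, 0.01, 0.2 and -0.21, and neutrophil markers at 0.69, 0.05, 0.21, 0.75 and -0.07. Their part in the cell cycle values was not tested.

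**Figure D4:**
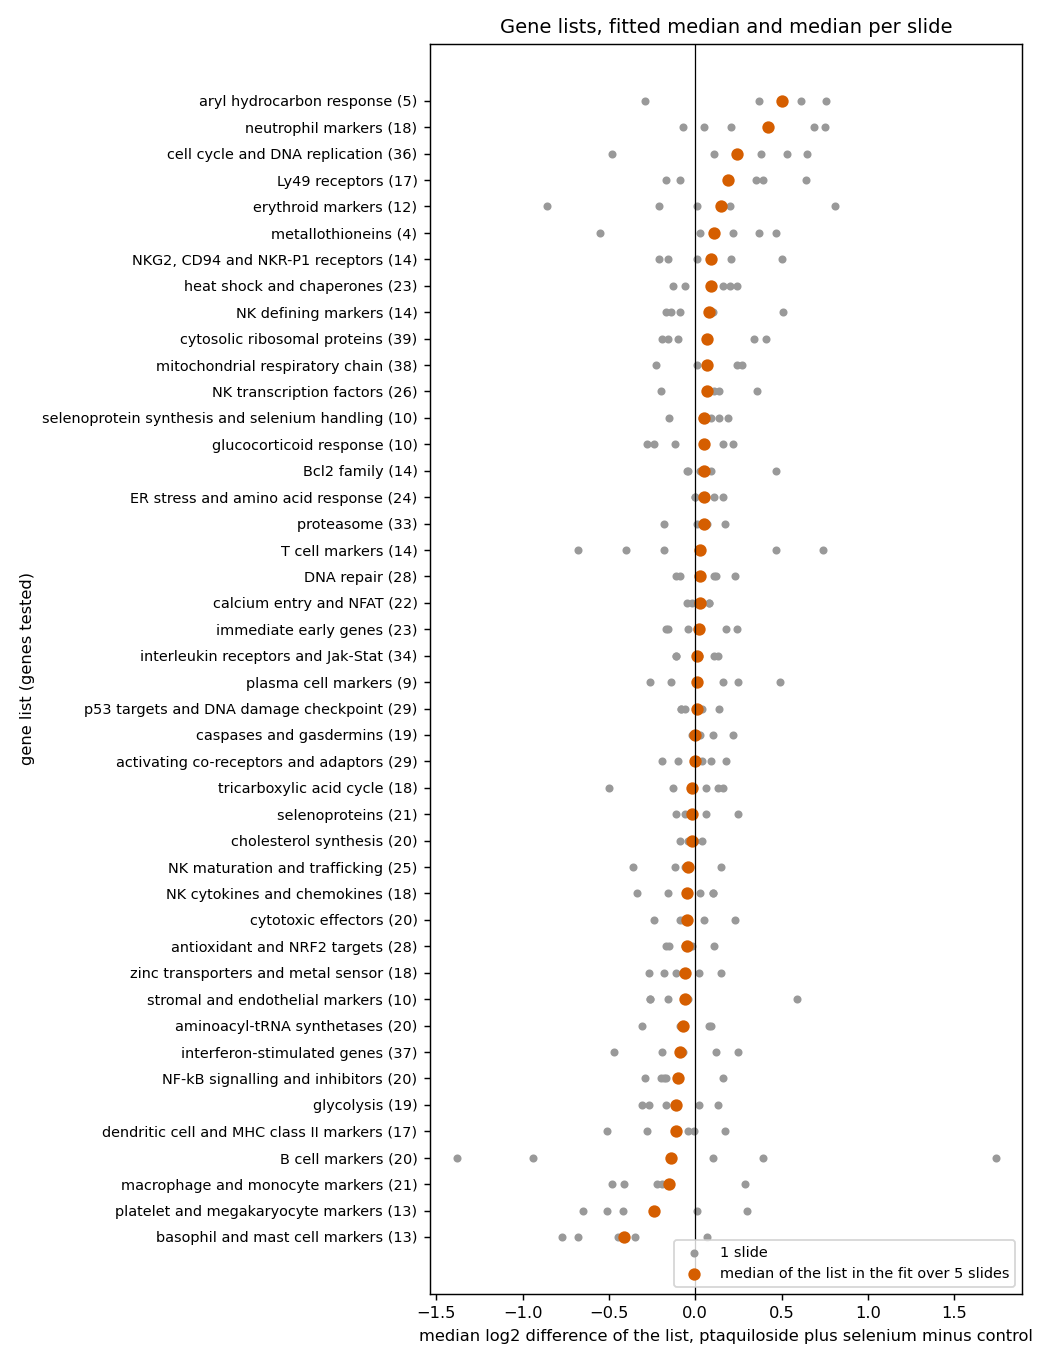
Median log2 difference, ptaquiloside plus selenium minus control (horizontal axis), of 44 gene lists (rows, with the number of tested genes in brackets). Orange points give the median from the fit over 5 slides and grey points the median on each slide. Basophil and mast cell markers (-0.41) lie at the bottom, and the aryl hydrocarbon response (0.50) and neutrophil markers (0.42) at the top. The aryl hydrocarbon response holds 5 tested genes, and its median is the value of Nqo1. B cell markers spread most between slides (-1.38 to 1.74).

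The cytotoxic machinery of NK cells showed small differences. Of 20 effectors 9 were higher and 11 lower (median -0.05, and 0.08 without slide 5), with Prf1, the pore-forming perforin, at 0.01 and granzyme A (Gzma) at 0.23. Gzmc, a granzyme induced in activated killer cells, had an unadjusted p of 0.0404 (-0.44 ± 0.17 SE), and combination mice ran from 2.09 to 2.78 against 2.54 to 3.19 in control. Gzmb differed by -0.34 ± 0.18 (SE), with the array of combination mouse 2 left out for an outlier flag, and stood at -0.15 without slide 5.

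Ly49 receptors were higher for 14 of 17 genes with a median of 0.19, which was 0.10 without slide 5. Klra8, the activating receptor Ly49H, averaged 5.47 ± 0.13 (SD, n = 5) with the combination and 5.17 ± 0.25 (SD, n = 5) in control (0.30 ± 0.16 SE). Klra2, an inhibitory member, was lower on 5 of 5 slides (-0.47 ± 0.17 SE, unadjusted p = 0.0257). These genes are close copies of each other, and a probe may read more than 1 of them. The NKG2, CD94 and NKR-P1 receptors had a median of 0.09, and of the activating co-receptors and adaptors the receptor Cd160 (0.53) and the adaptor Lat (0.45) were higher on 5 of 5 slides. Cd160 stood at -0.07 with normexp correction.

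Among 18 NK cytokines and chemokines 7 were higher and 11 lower (median -0.05). Ccl9, a chemokine for myeloid cells, was at 4.04, 4.59, 4.24, 4.43 and 4.28 with the combination, against 4.62, 5.14, 4.59, 5.05 and 4.60 in control (-0.48 ± 0.12 SE, unadjusted p = 0.00640). Combination mouse 2 lay level with the lowest control mice. The inflammatory cytokine Tnf differed by -0.71 ± 0.30 (SE) and by -0.40 without slide 3, where control mouse 3 had 4.18. Interferon gamma (Ifng) stood at 0.14.

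Interferon-stimulated genes, the antiviral programme downstream of interferon receptors, were higher for 15 and lower for 22 of 37 (median -0.09). Rsad2, the antiviral enzyme viperin, differed by -0.52 ± 0.19 (SE), while its 3 probes gave -0.98, -0.52 and 0.04. The oligoadenylate synthetase Oas1a went the other way (0.46 ± 0.19 SE, and 0.27 without slide 5), as did Oas2 (0.43) and Oas3 (0.23). Without slide 3 the list median was 0.00.

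Genes that handle selenium and oxidative stress gave medians near that of all genes. Of 21 selenoproteins 9 were higher and 12 lower (median -0.02, range -0.19 to 0.30), and 0 had an unadjusted p under 0.05. Among them the glutathione peroxidases Gpx1 (-0.10), Gpx2 (0.30) and Gpx4 (0.10) and the thioredoxin reductases Txnrd1 (-0.17) and Txnrd2 (0.19) differed in sign. Without slide 5 Gpx2 stood at 0.07 and Txnrd2 at 0.01. Of 28 antioxidant and NRF2 target genes 9 were higher and 19 lower (median -0.05), with Hmox1 at an unadjusted p of 0.0342. Nfe2l2, the NRF2 factor itself, was lower on 5 of 5 slides (-0.25 ± 0.13 SE). The 29 p53 target and DNA damage checkpoint genes had a median of 0.01 (-0.02 without slide 5), and 0 had an unadjusted p under 0.05.

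Metallothioneins, small proteins that bind zinc and other metals, were followed at the protein level in the study. Mt1 was at 6.13, 3.51, 3.03, 2.67 and 3.94 with the combination, against 5.67, 3.98, 2.59, 2.64 and 3.69 in control (0.14 ± 0.17 SE). Mt2 was at 7.80, 4.94, 4.37, 3.80 and 5.18, against 7.21, 5.97, 4.11, 3.22 and 4.49 in control (0.22 ± 0.27 SE). Both were higher on 4 of 5 slides and lower on slide 2, and mice of slide 1 were highest in both groups. Mt1 turned to -0.05 on the unscaled signal, and Mt2 stood at 0.10 without slide 5. Mt3 (0.07) and Mt4 (0.03) differed less.

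B cell markers varied between mice more than between groups. Of 20 genes 15 were lower and 5 higher (median -0.14), and 0 had an unadjusted p under 0.05. By slide the median was 0.10, 0.39, 1.74, -1.38 and -0.94, and it was 0.25 without slide 4, 0.16 without slide 5 and -0.57 without slide 3. Averaged over the list, combination mouse 4 was low (-1.08) and combination mouse 3 high (1.5). T cell markers had a median of 0.03, with the slides on both sides of 0.

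The single compounds were set against the same control arrays, so their differences are not independent of those above. Spint1 was higher by 1.97 with ptaquiloside alone and by 2.39 with selenium alone, Gsdme by 1.27 and 1.20, and Ahrr by 2.06 and 1.75. Hic1 was higher by 1.05 with ptaquiloside and by 1.88 with selenium. Fcer1a stood at -0.03 with ptaquiloside (-0.15 without slide 4) and 0.05 with selenium, and Cd200r3 at -0.18 (-0.03 without slide 4) and 0.08. Other genes lower with the combination were lower with each single compound too. Among them were Ocstamp (-0.98 with ptaquiloside and -0.91 with selenium), Cd14 (-0.73 and -0.97) and Mrc1 (-0.89 and -1.48). Without slide 4 their ptaquiloside values were -1.02, -0.36 and -1.07. Ambp (0.19 and -0.66) was lower with selenium only. The basophil and mast cell list had medians of -0.18 with ptaquiloside (-0.07 without slide 4, whose ptaquiloside array was dim) and 0.05 with selenium.

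Most genes named above were picked by their difference from control on the 5 combination arrays. Their values against selenium alone are therefore no separate test. The comparison with selenium alone used the same 5 combination arrays. It gave 0 genes past an adjusted p of 0.05 in limma (smallest adjusted p = 0.732) and 494 at an unadjusted p under 0.05 (2.83%), of which 275 were higher (1.57%) and 219 lower (1.25%). Without slide 5 there were 1982, of which 684 were higher and 1298 lower, and without slide 4 there were 318 higher and 80 lower. Cyp11a1 (-0.78 ± 0.16 SE, unadjusted p = 0.00242), Cd200r3 (-0.73 ± 0.16 SE, 0.00315), Klf5 (-0.66 ± 0.15 SE, 0.00419) and Fcer1a (-0.63 ± 0.19 SE, 0.0166) were lower with the combination. Other genes lower against control differed little from selenium or were higher, such as Ambp (0.06), Mrgpra3 (0.04), Ifi205 (-0.02), Creb3l4 (-0.10), Ocstamp (0.17) and Rai14 (0.27). Pira2 (-0.34) and Sucnr1 (-0.30) lay between. For Spint1 the difference was -0.17 ± 0.37 (SE), for Gsdme 0.18 ± 0.29 (SE) and for Ahrr 0.09 ± 0.36 (SE), and Hic1 was lower with the combination (-0.80 ± 0.22 SE). Basophil and mast cell markers were lower for 12 of 13 (median -0.44) and platelet markers for 13 of 13 (median -0.48). Cell cycle genes were lower for 35 of 36 (median -0.31) and neutrophil markers for 14 of 18 (median -0.23). Interferon-stimulated genes were lower for 36 of 37 (median -0.52), with 9 at an unadjusted p under 0.05. Rsad2 (-0.95 ± 0.28 SE) and the guanylate-binding protein Gbp2 (-0.76 ± 0.25 SE) were among them. NK defining markers were also lower for 14 of 14 (median -0.12) and the tricarboxylic acid cycle for 18 of 18 (median -0.16). The proteasome was lower for 31 of 33 (median -0.09), and immediate early genes for 3 of 23 (median 0.15). The share of all genes lower than with selenium is not given here, so these counts lack a common reference. B cell markers were higher for 20 of 20 (median 0.71), and the part of this marker shift in the other lists was not tested. Selenium alone stood above control for interferon-stimulated genes (median 0.42), cell cycle genes (0.60) and neutrophil markers (0.63). For B cell markers it stood below control (-0.83). With the combination these medians against control were -0.09, 0.24, 0.42 and -0.14. A list lower than with selenium was therefore not always lower than in control.

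**Figure D5:**
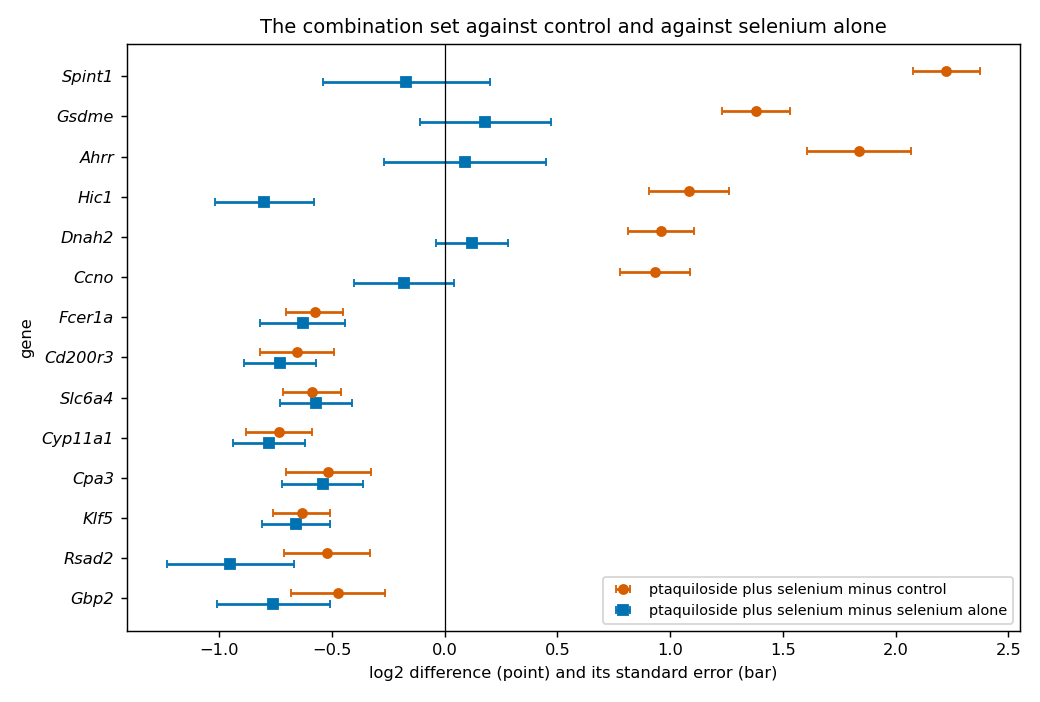
Log2 difference (horizontal axis, point) and its standard error (bar) of 14 genes (rows) for ptaquiloside plus selenium minus control (orange circles) and minus selenium alone (blue squares), with the same 5 combination mice in both. Spint1, Gsdme and Ahrr lie near 0 against selenium and above 1 against control, whereas Fcer1a, Cd200r3 and Cyp11a1 lie below -0.5 in both. The genes were picked from those named by their values against control, so the comparisons are not independent. The lower genes shown were also lower against selenium. Others lower against control are not shown and were not lower against selenium, such as Ambp (0.06), Ocstamp (0.17) and Rai14 (0.27).

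Against ptaquiloside alone the combination also gave 0 genes past an adjusted p of 0.05 in limma (smallest adjusted p = 0.938) and 92 at an unadjusted p under 0.05 (0.526%), or 568 (3.25%) without slide 4. Camp was higher with the combination by 1.18 (0.89 without slide 4) and S100a9 by 1.08 (0.77), and neutrophil markers had a median of 0.76 without slide 4. Top2a was higher by 1.27 (0.89 without slide 4), and cell cycle genes had a median of 0.46 without it. Spint1 differed by 0.26 and Ahrr by -0.23, and neither had an unadjusted p under 0.05. Of the basophil and mast cell genes, Fcer1a differed by -0.54, Cd200r3 by -0.47, Cpa3 by -0.25 and Il4 by -0.03. None of them had an unadjusted p under 0.05 in the limma fit with all slides.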

How the data were processed

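RNA of splenic NK cells was labelled with Cy3 and hybridised to Agilent mouse arrays. The deposited scanner files hold intensity values per spot, made with Agilent Feature Extraction 9.5.3.1 per the submitters' processing notes, and the processed signal is background-subtracted and unscaled between arrays per the file headers. Flags and names of unit other, per the file headers, marked control spots, outliers and spots well above background. The submitters' table of processed values was not used, because its header says that 2 arrays were replaced by means.

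Control and outlier spots were left out, spots of a probe averaged, and log2 signal minus the array's 75th percentile computed. A probe was kept where 5 or more of the 20 arrays were well above background, with the brightest probe per gene, giving 17481 genes (144 missing values among the 10 arrays, left out gene by gene). Of 41174 probes 25097 were named by accession through RefSeq and 16077 kept the file's name. Probe coordinates are mm9 as the files give them, with no exon annotation used. Of 23 named genes with several probes, 1 had a probe of the other sign. limma 3.58.1 in R 4.3.3 fitted group and slide to the 10 arrays, two-sided, with Benjamini-Hochberg adjustment over all genes. The scripts were tested on simulated data. Mice differ between arrays. With the slide as a block, p-values measure how the difference between mice of a shared slide varied from slide to slide. They do not measure the full spread between mice, and the number of mice limits precision.

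Mouse numbers pair the arrays through the shared slide. Deviations of same-numbered arrays correlated at 0.668, 0.633, 0.001, 0.553 and 0.431. On slides 3 and 5 a differently numbered array correlated more (0.199 and 0.467). Named genes were those past the threshold, the 12 per direction with the smallest p and 1 sign on 5 of 5 slides, the 5 per direction with the largest difference and no overlap, Mt1, Mt2 and up to 4 genes per list with the smallest p. Other genes were named after their values were seen. This rule favours stable directions, so counts of slides are no separate test. The comparison, lists and rules were chosen with earlier results of these data known. Alternatives covered the block, arrays in the fit, background correction, scaling, dim probes, probe choice, the methods' t-test and each slide left out. A few genes that the rule names are not reported here.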

Additional observations from a re-analysis of the deposited data

Results flagged for a closer look

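Combination mouse 5 lay far from the other 4 of its group in several measures. Its median correlation with the other 9 arrays was 0.953, against 0.974 for the nearest combination mouse. Its signals were low for the B cell gene Cd72 (1.66, nearest 2.46), the ferritin Ftl1 (4.84, nearest 5.56), Gbp2 (0.36, nearest 1.59), the NF-kB list (3.22, nearest 3.71) and the tricarboxylic acid cycle list (1.96, nearest 2.63). They were high for Selenos (3.71, nearest 3.23) and for stromal and endothelial markers (-1.81, nearest -2.85). Combination mouse 1 was high for neutrophil markers (2.69, nearest 1.95), cell cycle genes (1.5, nearest 0.96) and ER stress genes (2.87, nearest 2.67). Combination mouse 2 was low for Acpp (-2.08, nearest -0.96) and high for Mrc1 (-2.91, nearest -3.32). Mouse 4 of that group was high for the Ly49 list (3.27, nearest 3.09), and mouse 3 low for the antioxidant list (2.87, nearest 3.01). In the control group mouse 2 was low for Snai3 (-5.05, nearest -3.87) and high for the antioxidant (3.23, nearest 3.04) and selenoprotein lists (2.31, nearest 2.20), and mouse 1 low for Ahr (2.12, nearest 2.52). Each value is 1 mouse whose gap to the nearest of its group exceeded Dixon's limit of 0.71 of the group's range. There were 19 such values in 259 checks, and chance gives about 1 in 20 groups.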

How the results depend on the processing

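The single call, Spint1, was kept with median scaling and with the stricter filter on dim probes. Quantile normalization gave 2 calls, Spint1 and Ahrr, and the fit on all probes gave 2, both Spint1. The count was 0 without the replicate block, with 20 or 19 arrays, with normexp, without a filter on dim probes, on the unscaled signal (chosen after seeing the data), with the methods' t-test under its 2-fold limit and without any 1 slide (0 to 0). The fit without the filter tested 28307 genes and gave Spint1 an adjusted p of 0.135 from limma, and each slide left out removes 2 arrays. Why the call was lost in these settings was not tested. The genes at an unadjusted p under 0.05 numbered 141 without the replicate block, 71 with 20 arrays, 237 with 19, 242 with normexp, 173 with the methods' t-test and 286 to 708 with 1 slide left out. The 708, without slide 5, were 144 higher and 564 lower. Higher and lower genes numbered 156 and 225 in the reported fit, 158 and 84 with normexp, 311 and 253 without the filter, 265 and 209 without slide 2, 241 and 162 without slide 3, 167 and 119 without slide 4 and 28 and 270 on the unscaled signal, whose median over all genes was -0.18. Signs turned for Snai3 (-0.09), Cd160 (-0.07) and Mt4 (-0.07) with normexp, for Mt4 with median scaling (-0.02), and on the unscaled signal for Mt1 (-0.05), Cd72 (-0.08), Mt3 (-0.12), Mt4 (-0.17), Txnrd2 (-0.01) and Selenos (-0.07). With 1 slide left out they turned for Mt4 (-0.13 to 0.20), Cd79b (-0.83 to 0.13), Blk (-0.72 to 0.23) and Mt3 (-0.10 to 0.21). Against ptaquiloside or selenium alone the calls stayed at 0 in the alternatives run. Dim signals, such as Ahrr in control, limit the values of such genes.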

Other observations

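List medians not given above ran from -0.11 to 0.15, the latter for erythroid markers (10 of 12 higher). The median of all genes was 0.02, with quartiles of -0.10 and 0.13. Cytosolic ribosomal proteins stood at 0.07 (27 of 39 higher, and -0.01 without slide 5), the mitochondrial respiratory chain at 0.07 (29 of 38 higher), the proteasome at 0.05 (20 of 33 higher) and DNA repair at 0.03 (17 of 28 higher). Glycolysis was at -0.11 (14 of 19 lower), NF-kB signalling at -0.10 (14 of 20 lower) and heat shock genes at 0.09 (18 of 23 higher). Dendritic cell and MHC class II markers were at -0.11 (11 of 17 lower, and 0.04 without slide 5) and plasma cell markers at 0.01.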
